A study of Mus musculus with 20 samples.

Results

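The colons of chow-fed mice that lack Pcca in the intestinal epithelium were compared with the colons of chow-fed controls that carry the floxed Pcca gene. The comparison holds 8 of the 20 RNA libraries of the series, chosen by their labels: 4 labelled Pcca Vill (Vill 1 to 4) and 4 labelled Pcca ff (ff 1 to 4). The Vill mice carry floxed Pcca and Villin-Cre, a Cre recombinase driven by the promoter of villin, a protein of the intestinal epithelial brush border. Their ff controls are littermates with floxed Pcca. Both groups ate standard chow (5V75), were fasted for 4 hours and were killed at 9 weeks of age. A further 4 chow libraries, labelled Pcca Alb, come from mice whose floxed Pcca is deleted in the liver through Albumin-Cre, and 8 libraries come from ff and Vill males of 18 weeks that ate a high fat diet (HFD, 60% of energy from fat) for 12 weeks from the age of 6 weeks. Poly-A RNA came from flushed, frozen colon sections, so the wall and its immune cells were measured together with the epithelium that Villin-Cre acts on. The labels give each library a replicate number and name no animal, so p-values measure the spread between these samples.

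Propionate is a short-chain fatty acid that bacteria of the large bowel make from fibre, and propionyl-CoA also arises from valine, isoleucine, methionine, threonine and odd-chain fatty acids. Propionyl-CoA carboxylase, built of alpha subunits (Pcca) and beta subunits (Pccb), uses biotin and bicarbonate to make methylmalonyl-CoA in mitochondria. Methylmalonyl-CoA epimerase (Mcee) and the vitamin B12-dependent mutase (Mmut) carry it on to succinyl-CoA, which enters the citric acid cycle. The comparison sets colon transcripts of mice that lack Pcca in the gut lining beside those of floxed controls. No group of the series is labelled as carrying Villin-Cre without floxed Pcca. Effects of Villin-Cre and of the loss of Pcca therefore cannot be told apart here.

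The ff libraries held 33.6 to 35.8 M counted reads and the Vill libraries 27.9 to 40.4 M. Mitochondrial transcripts took 3.14 to 3.92% of reads in ff and 3.78 to 3.91% in Vill, a difference of 0.388 percentage points (exact permutation test, 2-sided, p = 0.143, n = 4 per group). Defining markers of the colon were present, with a mean of 1755 CPM of Car1 (carbonic anhydrase of colonocytes) and 7513 CPM of Muc2 (the main colon mucin) in ff (CPM, counts scaled to library size by TMM). A list of 12 measured small intestine genes summed to 290 to 758 CPM in ff and 257 to 714 CPM in Vill, from Fabp1 at 0.23 CPM to Slc5a1, a glucose transporter, at 195 CPM on average in ff, so these genes were low but not absent. The first principal component of the 8 libraries took 45.9% of the variance and did not order them by genotype: ff 2, Vill 1 and Vill 4 lay on one side and the other 5 on the other. Its leading genes were Abca12, Slc51a and Nts on the first side and Slc37a2, Fxyd4 and the posterior Hox genes Hoxd13 and Hoxb13 on the other. Vill 3 stood apart from the rest in a further respect, a low level of smooth muscle genes, and values without it are given beside several results. The labels give no sex for the chow mice. All 12 chow libraries held reads of Xist, made from the inactive X chromosome (22486 to 59322), and 0 reads of the Y-linked gene Ddx3y. This is the pattern of female tissue.

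Of 19701 genes tested with edgeR, 1 differed between Vill and ff at an adjusted p under 0.05, which is 0.00508% of those tested. It was Gm45774, a long noncoding RNA of the metallothionein locus on chromosome 8, and it rose. Without adjustment, 374 genes (1.9%) had a p under 0.05, 157 of them higher in Vill (0.797%) and 217 lower (1.1%). All 4 Vill libraries lay above all 4 ff libraries for 131 genes (0.665%) and below them for 134 genes (0.68%), together 1.35% of those tested. The median log2 fold change (Vill minus ff, also below) was 0.0034 and the median standard error 0.262. DESeq2 called 3 genes, Gm45774, Mt1 and Ciapin1, and limma-voom called 1. All genes named from here on other than Gm45774 missed the adjusted threshold in edgeR, most with an adjusted p that rounds to 1, and their directions are given as log2 fold changes ± SE.

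**Figure D1:**
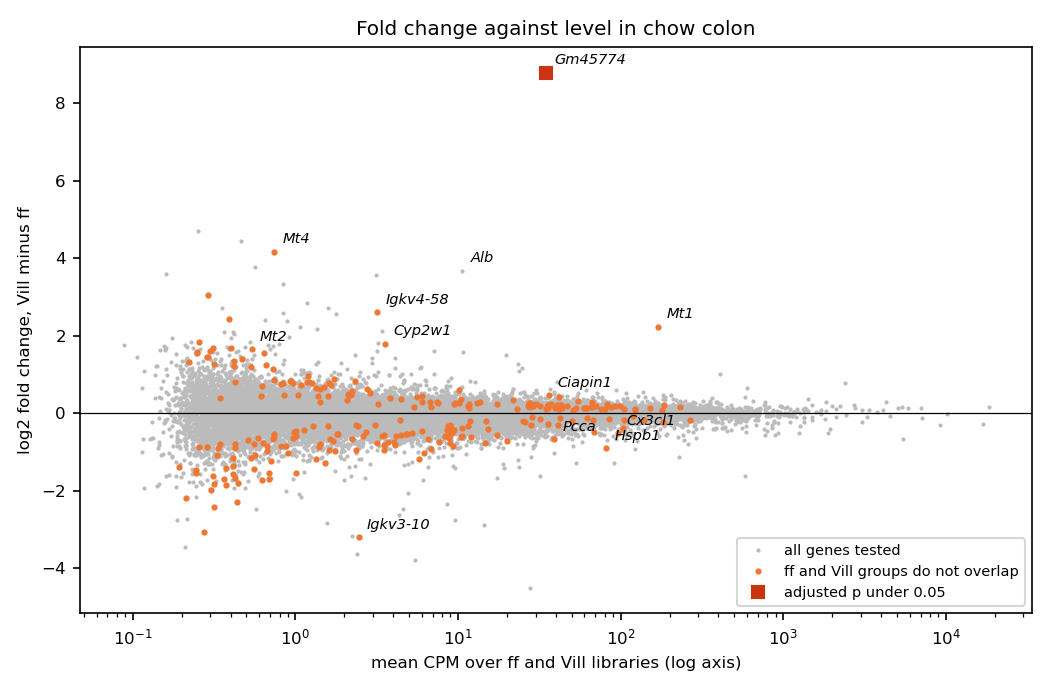
Each point is 1 of the 19701 genes, with its mean CPM over the ff and Vill libraries (x, log axis) against its log2 fold change, Vill minus ff (y). Orange points are the 265 genes whose 4 Vill values all lie on one side of the 4 ff values, and the red square, far above the rest at 8.78, is Gm45774.

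The targeted gene was read first. Pcca (ENSMUSG00000041650, mm39 chromosome 14, 122771736 to 123128512, plus strand) stood at 54.0, 39.5, 57.2 and 40.8 CPM in ff 1 to 4. In Vill 1 to 4 it stood at 27.7, 33.6, 29.2 and 29.5 CPM. All 4 Vill libraries were below all 4 ff libraries, and the spread was wider in ff (47.9 ± 9.05, SD, n = 4) than in Vill (30.0 ± 2.50, SD, n = 4). The Vill level was 62.7% of the ff level (95% interval 49.5 to 79.4%; log2 fold change -0.67 ± 0.16, SE, edgeR adjusted p = 1 over all genes). On Pcca alone an exact permutation test over the 70 assignments gave p = 0.0286 (2-sided), the smallest it can give with 4 against 4. The sources used here do not say which exons the deletion removes, so reads from outside the deleted part count here, as do reads from cells that Villin-Cre does not reach. In such whole-tissue RNA, fewer cells of a type and less RNA per cell cannot be told apart. In the colons of Alb mice Pcca averaged 45.5 ± 8.75 CPM (SD, n = 4), within the ff range apart from 1 library above and 1 below it. Vil1, the villin gene itself, averaged 931 CPM in ff and 920 CPM in Vill.

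The partner subunit and the later steps differed little between the groups. Pccb stood at 129, 104, 150 and 144 CPM in ff and 127, 148, 186 and 117 CPM in Vill (log2 fold change 0.14 ± 0.17). The groups overlapped. Mmut stood at 68.7 to 72.2 CPM in ff and 62.0 to 80.6 CPM in Vill (0.04 ± 0.09), and Mcee at 22.8 to 29.0 and 22.2 to 29.1 CPM (0.01 ± 0.13). For Mmut the 95% interval was -0.16 to 0.23 on the log2 scale. The subunits of succinyl-CoA ligase, which acts on the product of the route, had log2 fold changes of 0.19 (Suclg1), 0.15 (Suclg2) and 0.02 (Sucla2). Mmaa and Mmab, which handle the mutase's cobalamin cofactor, had values of 0.07 and 0.04. Over the whole list of 17 genes of the route and its cobalamin supply, all measured, 13 had a higher and 4 a lower mean in Vill, with a median of 0.04. Pcca was the only one of the 17 with groups that did not overlap or with an unadjusted p under 0.05.

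**Figure D2:**
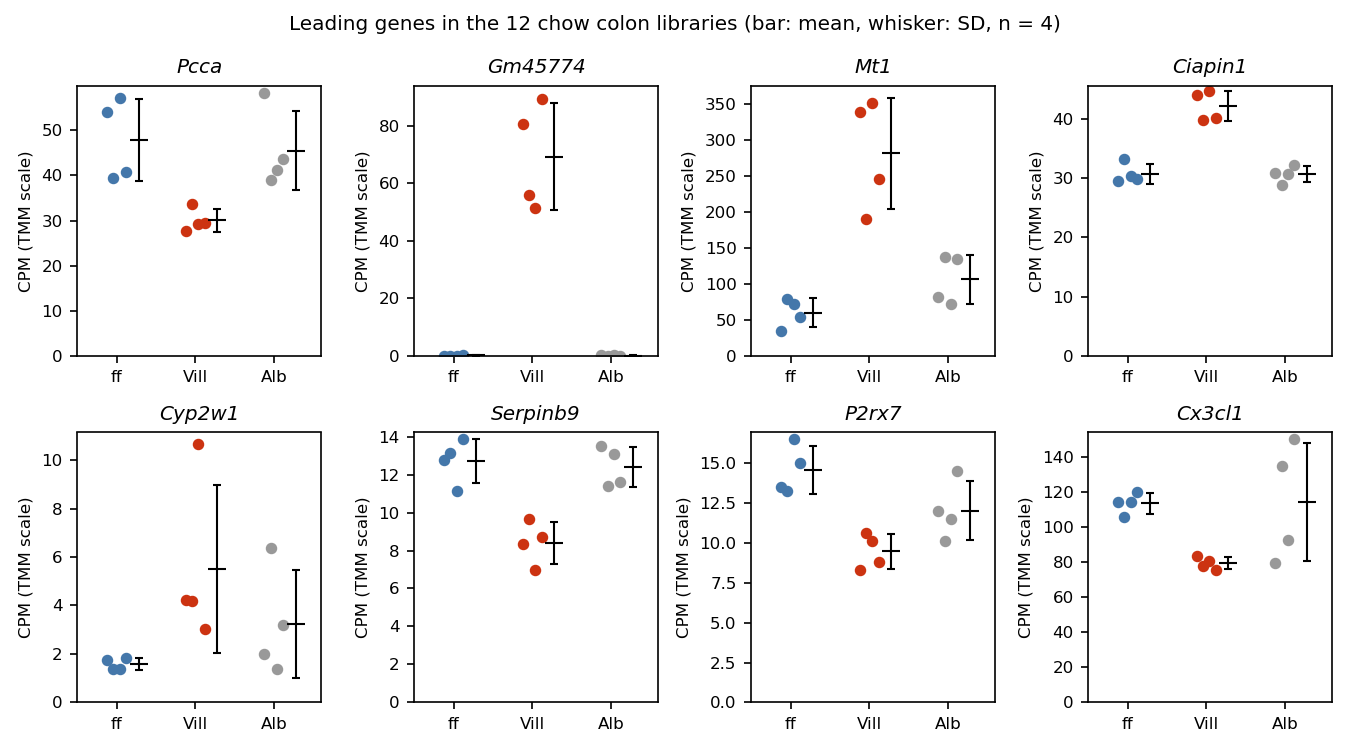
CPM (y, TMM scale, from 0) of 8 genes in the 4 ff, 4 Vill and 4 Alb chow libraries, 1 point per library, with the mean and SD beside each group. Gm45774 is at most 0.40 CPM in every ff and Alb library and 51.3 CPM or more in every Vill library, whereas for Pcca the Vill points lie below the ff points at about 30 CPM.

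Gm45774 was at or near 0 in every control and well above it in every Vill library. This long noncoding RNA gene (ENSMUSG00000110588) lies on the minus strand of chromosome 8, from 94897376 to 94900040 in mm39. It stood at 0.09, 0.13, 0 and 0.40 CPM in ff and at 80.7, 55.9, 51.3 and 89.4 CPM in Vill. The lowest Vill library was far above the highest ff library. In reads, 9318 were counted in Vill and 21 in ff, a scaled ratio of 429 (95% interval 281 to 694, counting error only). The edgeR log2 fold change was 8.78 ± 0.73 (SE) with an adjusted p of 0.00114. Alb colons stood at 0 to 0.25 CPM, and Vill against Alb gave 9.12 with an adjusted p of 0.001 in the same edgeR fit, which shares its Vill libraries with the first comparison. In the HFD males, which share no library with the chow groups, Gm45774 stood at 0 to 0.058 CPM in ff and 40.5 to 78.0 CPM in Vill (edgeR log2 fold change 10.54, adjusted p = 2.1e-05). It was the 1 gene of 17715 called there, 0.00564% of those tested.

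Metallothioneins are small cysteine-rich proteins that bind zinc and copper, and their genes sit side by side around Gm45774. Mt1 (ENSMUSG00000031765, plus strand, mm39 chromosome 8, 94905710 to 94906955) stood at 34.5, 79.3, 71.8 and 54.2 CPM in ff and at 339, 190, 352 and 247 CPM in Vill. Every Vill library held more than the highest ff library. The log2 fold change was 2.23 ± 0.31 (SE), 4.70-fold, with an edgeR adjusted p of 0.121. DESeq2 called Mt1 (adjusted p = 5.76e-09), as did edgeR with no filter on low counts (adjusted p = 0.037). Alb colons stood at 72.6 to 137 CPM, and on HFD Mt1 stood at 31.9 to 86.9 CPM in ff and 99.7 to 106 CPM in Vill (0.84). In both diets no Vill library fell inside the ff range.

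Mt2, whose gene from 94899292 to 94900196 overlaps Gm45774 on the other strand, held far fewer reads than Mt1. It had 35 reads in ff, at 0.06 to 0.35 CPM, and 120 in Vill, at 0.54 to 1.21 CPM (1.66 ± 0.52). The sources used here do not settle whether counting used strand, so reads of Mt2 and Gm45774 cannot be told apart with certainty. Mt4, known from stratified squamous epithelium, held 10 reads in ff and 177 in Vill, at 0 to 0.17 and 0.67 to 2.41 CPM (4.17 ± 1.07). It was highest in Vill 1 (1.83 CPM) and Vill 4 (2.41 CPM), where the summed squamous epithelium list was also high (42.0 and 39.2 CPM, against 10.9 and 9.65 CPM in Vill 2 and Vill 3). In ff 2 that list stood at 43.2 CPM with Mt4 at 0.13 CPM. Mt3, best known from brain, averaged 2.59 CPM in ff and 3.34 CPM in Vill with overlapping groups (0.36 ± 0.74). All 4 metallothioneins had a higher mean in Vill, 3 of them with no overlap, and their median was 1.94. Mt2 and Mt4, both with few reads in ff, could pass the filter on low counts only through a group where they are higher. This tilts the count of 3 and the median upward, so neither can show a rise of the list. With only genes at a mean of 1 CPM or more, which leaves Mt1 and Mt3, the list median was 1.30, midway between these members.

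Metallothionein promoters carry metal response elements, short motifs bound by the zinc-sensing factor MTF-1. The promoters of Mt1 and Mt2 are shown because these are the neighbours nearest to Gm45774. Each runs from 250 bases before the start site to 50 after it, on the plus strand, from RefSeq on GRCm38.p6 (an older build than that of the files, so these coordinates cannot be set beside those above), at chr8:94178839-94179138 for Mt1 and chr8:94172368-94172667 for Mt2. Capitals mark matches to TGCACNC or TGCGCNC on either strand, the core letters of the element.
Mt1: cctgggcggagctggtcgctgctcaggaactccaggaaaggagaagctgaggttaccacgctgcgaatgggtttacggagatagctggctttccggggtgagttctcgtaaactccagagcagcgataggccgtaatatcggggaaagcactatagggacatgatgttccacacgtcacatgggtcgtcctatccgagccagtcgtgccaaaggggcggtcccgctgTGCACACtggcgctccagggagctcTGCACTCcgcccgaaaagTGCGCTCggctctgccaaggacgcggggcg
Mt2: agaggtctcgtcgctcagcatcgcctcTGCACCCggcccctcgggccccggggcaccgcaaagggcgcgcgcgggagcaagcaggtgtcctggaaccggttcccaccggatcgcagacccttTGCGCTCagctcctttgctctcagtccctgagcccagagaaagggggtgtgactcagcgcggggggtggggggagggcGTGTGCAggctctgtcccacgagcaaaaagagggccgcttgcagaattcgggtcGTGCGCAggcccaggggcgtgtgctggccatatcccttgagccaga
Mt1 held 3 matches, all on its own strand, and Mt2 held 4, 2 on each strand. Of 32851 promoters of the same length, 1.97% held 3 or more and 0.517% held 4 or more. Mt3 and Mt4 held 1 each, and 25.7% of promoters held at least 1. Ciapin1 held none. Gm45774 was not matched in this table.

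Of the other 46 genes tested within 1 Mb of Gm45774, 22 had a higher and 24 a lower mean in Vill, with a median of -0.01. These 2 shares were near those of all genes tested. Groups did not overlap for 5 genes higher in Vill (Bbs2, Mt4, Mt2, Mt1 and Ciapin1) and 1 lower (Cx3cl1), where 0.665% and 0.68% of all genes tested did so. The limit of the filter given above for Mt2 and Mt4 holds for the count of 5 as well. Ciapin1, which helps to build cytosolic iron-sulfur clusters and lies 646 kb from Gm45774, stood at 29.6, 33.3, 30.3 and 30.0 CPM in ff and 44.1, 39.9, 44.8 and 40.2 CPM in Vill. Its groups were tight and apart. The log2 fold change was 0.46 ± 0.08, with an adjusted p of 0.738 in edgeR and 0.000173 in DESeq2. Alb colons held 28.9 to 32.3 CPM, and on HFD the fold change was 0.41.

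Cx3cl1, the membrane-bound chemokine fractalkine, which draws cells bearing Cx3cr1, lies 599 kb from Gm45774. It stood at 114, 106, 114 and 120 CPM in ff and 83.6, 77.5, 80.5 and 75.4 CPM in Vill (-0.52 ± 0.17). The Vill values sat together below the ff values, while Alb colons spread over 79.4 to 150 CPM. Bbs2, a subunit of the ciliary BBSome, lay 72 kb away and differed by 0.26. Ccl17, a T-cell chemokine near Cx3cl1, averaged 0.353 CPM in ff and 0.113 CPM in Vill (-1.57) with overlapping groups.

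**Figure D3:**
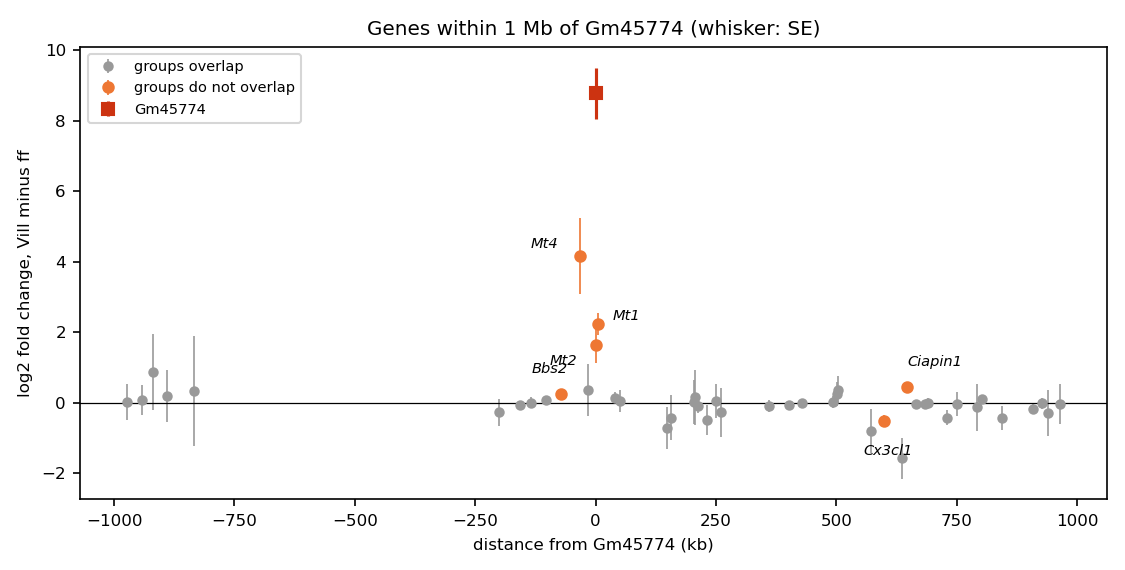
Log2 fold change, Vill minus ff, with its SE (y) against distance from Gm45774 in kb (x) for the 46 other genes tested within 1 Mb. Mt4, Mt2 and Mt1 stand above 1.5 beside Gm45774 at 8.78, and most genes farther out lie near 0.

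After Gm45774, Mt1 and Ciapin1, the smallest p-value among genes higher in Vill, at 2 CPM or more, belonged to Cyp2w1, a cytochrome P450 known from fetal colon and colon tumours. It stood at 1.76, 1.38, 1.36 and 1.85 CPM in ff and 4.21, 4.19, 10.7 and 3.03 CPM in Vill (1.80 ± 0.50). Vill 3 held the highest value, and without it the fold change was 1.26. Cacna1a, a neuronal calcium channel subunit, stood at 6.74 to 9.17 CPM in ff and 10.6 to 15.1 CPM in Vill (0.59). Ubap2 (44.5 to 52.5 against 53.0 to 67.6 CPM; 0.31) and Dffa, the inhibitor of a caspase-activated DNase (22.9 to 27.1 against 28.1 to 32.4 CPM; 0.26), were also apart. The noncoding gene Gm31462 did not overlap either (0.87), and nor did the immunoglobulin variable segment Igkv4-58 (2.61), whose highest value, 13.2 CPM, was in Vill 1. Groups overlapped for the cytolinker Eppk1 (0.40), the mitochondrial ribosome assembly factor Eral1 (0.35), Lonrf1 (0.76), Gm43858 (0.66) and Gm51425 (0.56).

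Alb, the albumin gene, had the largest fold change among these after Gm45774 (3.68 ± 1.10), but its groups overlapped. It stood at 3.01, 0.09, 0.81 and 2.22 CPM in ff and 25.8, 1.80, 3.44 and 47.8 CPM in Vill, so that Vill 1 and Vill 4 carried the difference. Of 12 measured hepatocyte genes among 18 listed, 10 had a higher mean in Vill (50.8% of all genes did) and 4 were higher with a p under 0.05 (0.797% of all genes). Among these, Serpina3k averaged 0.072 CPM in ff and 1.07 CPM in Vill (3.78). Genes so near 0 in ff could pass the filter on low counts only through a group where they are higher. This tilts the 2 counts upward, so they cannot show a rise of the list. The list median was 1.04, and 0.48 with only genes at a mean of 1 CPM or more. The summed level of the list was 108 to 175 CPM in ff and 127 to 201.7 CPM in Vill, so the sums overlapped, and the part of such RNA in other results was not tested.

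Among genes lower in Vill, Serpinb9, a granzyme B inhibitor, had the smallest p at 2 CPM or more. It stood at 12.8, 13.1, 11.1 and 13.9 CPM in ff and 8.36, 9.64, 6.98 and 8.70 CPM in Vill (-0.60 ± 0.13). P2rx7, an ATP-gated channel of immune and epithelial cells, stood at 13.5, 13.3, 16.5 and 15.0 CPM in ff and 8.32, 10.6, 10.1 and 8.77 CPM in Vill (-0.62 ± 0.14). For both genes the Vill group lay wholly below the ff group. The Alb colons were at 11.4 to 13.5 CPM for Serpinb9, within the ff range, and at 10.1 to 14.5 CPM for P2rx7.

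The next genes of this class include several at their lowest in Vill 3. Foxf1, a transcription factor of gut mesenchyme, stood at 17.6 to 25.3 CPM in ff and 10.9 to 16.6 CPM in Vill (-0.56). The collagen receptor Mrc2 (-0.73), the surface protein Cd109 (-0.85), Tmem200b (-1.03) and Tfpi, an inhibitor of coagulation made by endothelium (-0.51), were likewise apart. Ccl11, the eosinophil chemokine eotaxin, was lower with overlap (7.87 to 10.9 against 4.49 to 7.97 CPM; -0.66). Vill 3 had the lowest value for Foxf1, Mrc2, Cd109, Tmem200b, Tfpi and Ccl11, and without it their fold changes were -0.46, -0.63, -0.65, -0.87, -0.46 and -0.52.

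Further genes without overlap were the immunoglobulin-like receptor Ildr2 (-1.30), Ccdc8 (-0.82), Lysmd1 (-0.55), Gtdc1 (-0.45), the noncoding genes 5830444B04Rik (-1.18) and 4930511M06Rik (-0.99), and the variable segment Igkv3-10 (-3.21; 1.36 to 7.67 against 0 to 1.16 CPM). Creb3l2, a transcription factor of the secretory pathway, had overlapping groups (-0.45). Immunoglobulin segments are near-identical copies, so counting can split reads between them.

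The HFD colons give these genes a second reading in other animals, males of another age and diet. The chow libraries had the Xist and Ddx3y pattern of females, so sex differs as well. Of the 15 chow genes with the smallest p among those lower in Vill, 14 were tested on HFD and 12 of them again had a lower mean in Vill, with a median of -0.29. Of the 15 higher ones, 14 were tested and 7 were again higher, with a median of 0.02. Among all 17715 genes tested on HFD, 8987 had a lower and 8728 a higher mean in Vill. Tfpi and Ccdc8 (-1.07) were the lower ones with an unadjusted p under 0.05 there. Pcca on HFD was -0.35, with ff libraries at 29.9 to 59.5 CPM and Vill libraries at 33.2 to 37.3 CPM.

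Gene lists of metabolism were then read by the counts and medians of their members, beside the 50.8% of all tested genes that had a higher and the 49.2% that had a lower mean in Vill. Of 22 genes of branched-chain amino acid breakdown, which feeds propionyl-CoA, 19 were higher, with a median of 0.09, and without Vill 3 16 were (median 0.04). None had groups apart. Of 14 genes that take up, sense or activate short-chain fatty acids, 9 were higher (median 0.08), among them the transporter Slc5a8 (406 ± 56 CPM in ff against 427 ± 45 CPM in Vill, SD, n = 4) and Acads (0.24). Their sums were narrowly apart, at 1867 to 2055 CPM in ff and 2070 to 2163 CPM in Vill, though no member had groups apart. Alb colons stood at 1820 to 2096 CPM. Of 29 genes of fatty acid oxidation and ketogenesis, 24 were higher (median 0.11), with Cpt1a, the entry step for long chains, at 0.26 and Hadha at 0.19. Without Vill 1 this median was -0.02.

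Genes of energy metabolism differed little between the groups. Citric acid cycle genes were higher for 17 of 19 (median 0.06), with Sdha at 0.11 and Cs at -0.05. Nuclear subunits of oxidative phosphorylation were higher for 22 of 30 (median 0.05), Atp5a1 among them at 0.10, and without Vill 3 for 29 of 30 (median 0.10). All 13 mitochondrially encoded messenger RNAs were higher (median 0.14), with mt-Co1 at 0.15 and mt-Atp6 at 0.59. The share of reads they took was 3.03 to 3.77% in ff and 3.64 to 3.75% in Vill. Fatty acid synthesis genes were higher for 11 of 18 (median 0.16), Acly at 0.40 but at 0.08 without Vill 3, and cholesterol genes for 12 of 23 (median 0.00). No gene of these lists other than mt-Atp6 had a p under 0.05. Without Vill 1 the medians of the citric acid cycle, nuclear oxidative phosphorylation and fatty acid synthesis lists were 0.00, -0.03 and -0.04.

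Among metal and stress genes, the metallothioneins and the folding genes of the endoplasmic reticulum had medians farther from 0 than the other lists given here. Of 31 genes of zinc, copper and iron handling, 19 were higher (median 0.04), and the iron exporter Slc40a1 (0.24, but 0.0097 without Vill 3) and the zinc importer Slc39a4 (-0.17, but 0.09 without Vill 3) had overlapping groups. Antioxidant genes were higher for 12 of 25 (median 0.00) and integrated stress response genes for 16 of 24 (median 0.03). Folding genes of the endoplasmic reticulum were lower for 20 of 22 (median -0.17), with Hspa5 at -0.32 and Pdia3 at -0.19, none with groups apart. This median stayed between -0.24 and -0.10 under every edgeR alternative run. The summed list stood at 6367, 4510, 4822 and 6658 CPM in ff 1 to 4 and at 4609 to 5238 CPM in Vill. All Vill sums thus lay within the ff range. Leaving out 1 library at a time cannot show what ff 1 and ff 4 together add to the median. The small heat shock protein Hspb1, abundant in smooth muscle, stood at 162, 89.7, 87.0 and 87.9 CPM in ff and 47.9, 70.9, 28.4 and 80.7 CPM in Vill (-0.90). Its groups were apart, with ff 1 high and Vill 3 low.

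**Figure D4:**
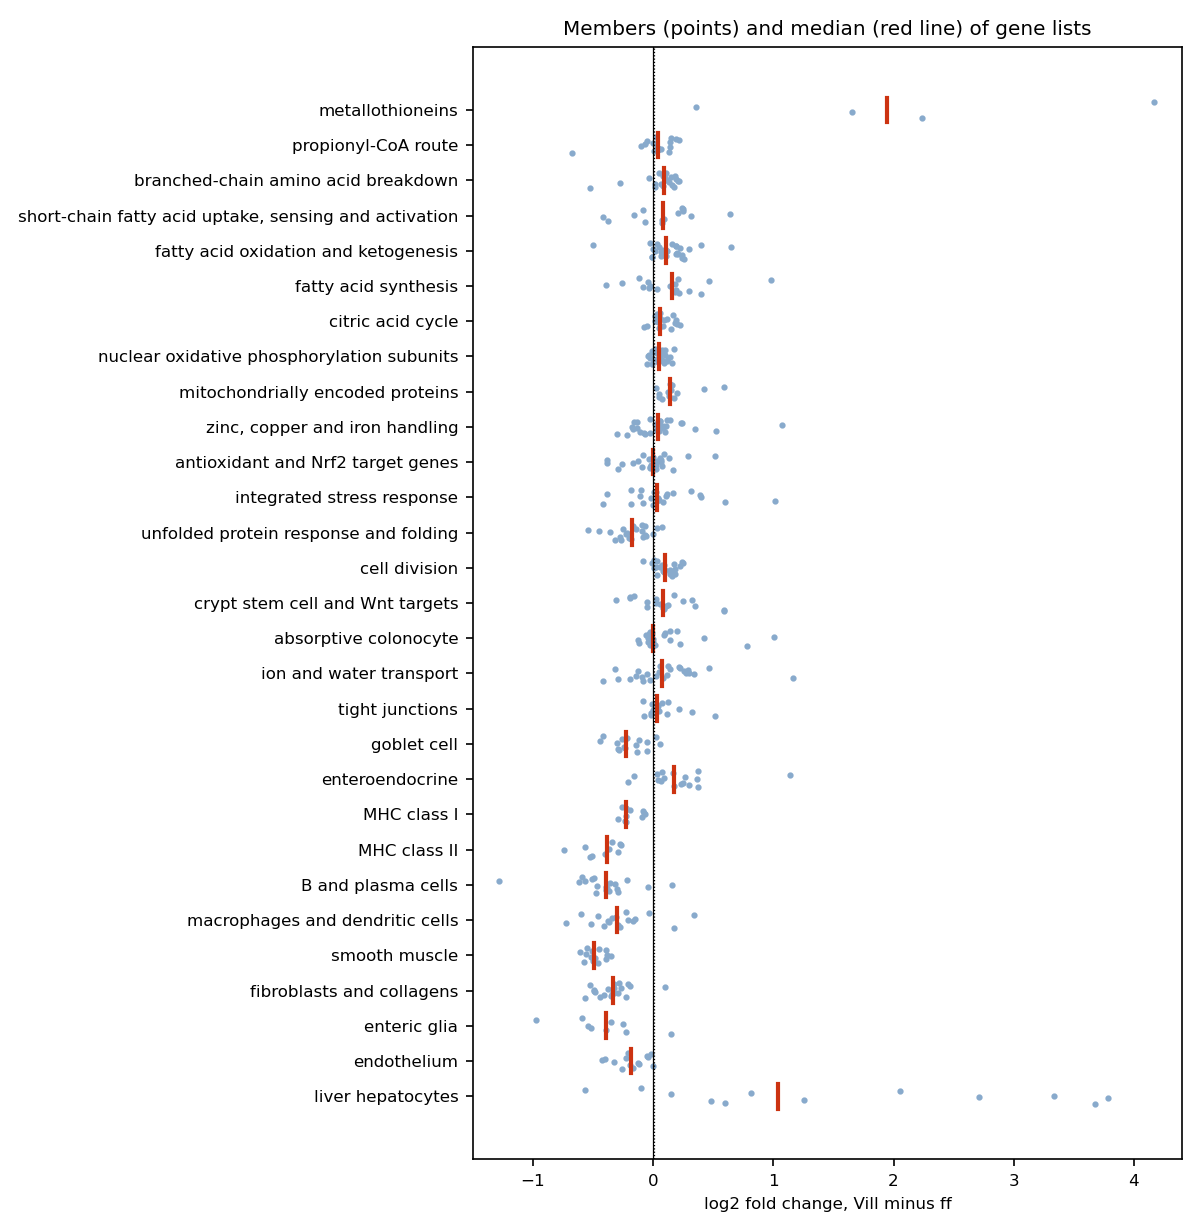
Log2 fold change, Vill minus ff (x), of every measured member (points) of 29 gene lists, with the median of each list as a red line. Metallothioneins, with a median of 1.94, and hepatocyte genes, with 1.04, stand to the right, smooth muscle at -0.49 lies farthest to the left, and most metabolic lists lie just above 0.

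Epithelial programmes overlapped between the groups. Absorptive colonocyte genes were higher for 11 of 23 and lower for 12 (median 0.00), with Krt19 at 0.20 and Vil1 at -0.02. Without Vill 3, 19 of 23 were higher (median 0.13). Cell division genes were higher for 22 of 24 (median 0.10; Mki67 at 165 ± 58 CPM in ff against 185 ± 30 CPM in Vill, SD, n = 4), but without ff 1 this median was -0.01. Crypt stem cell and Wnt target genes were higher for 13 of 19 (median 0.09), with the receptor Ephb2 at 0.35. Without Vill 3 their median was -0.04. Goblet cell genes were lower for 14 of 16 (median -0.22), Zg16 at -0.23, Clca1 at -0.29 and Muc2 at -0.13. Without Vill 3, which held 14248 CPM of the list against 28779 to 75052 CPM in ff, 9 of 16 were lower and the median was -0.01. Enteroendocrine genes were higher for 15 of 17, with a median of 0.18 that was 0.0039 without ff 1 and 0.36 without Vill 4. Among them Pax4, a factor of endocrine progenitors, was apart at a low level (0.06 to 0.75 against 0.80 to 1.12 CPM; 1.14). Ion and water transport genes (16 of 26 higher, median 0.07, Car2 at 0.29) and tight junction genes (13 of 18 higher, median 0.03) had medians near 0. Their shares of higher genes were above the 50.8% of all genes.

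Most immune lists had lower means in Vill, with no called gene. All 10 genes of MHC class II had a lower mean (median -0.38), and 18 of 19 B and plasma cell genes (median -0.39). The class II median was -0.83 without Vill 2, -0.61 without Vill 3 and -0.21 without Vill 1. Cd74, the class II invariant chain, stood at 296, 143, 317 and 404 CPM in ff and 124, 296, 232 and 133 CPM in Vill (-0.56), and H2-Ab1 was at -0.51. The values overlapped, with ff 2 below Vill 2 and Vill 3 and above Vill 1 and Vill 4. Igha, the constant region of IgA, ranged over 944 to 3511 CPM in ff and 666 to 2138 CPM in Vill (-0.51), and Jchain was at -0.39. Without ff 4 the B and plasma cell median was 0.24, and without Vill 2 it was -0.87. Macrophage and dendritic cell genes were lower for 16 of 18 (median -0.30, between -0.48 and -0.18 without 1 library), with the integrin Itgam apart at 2.34 to 3.14 against 1.91 to 2.28 CPM (-0.31). All 11 class I genes were lower (median -0.23), H2-K1 and B2m both at -0.23. Without Vill 3, 8 of 11 were lower and the median was -0.02. T cell and intraepithelial lymphocyte genes split evenly (10 of 19 higher, median 0.01), and interferon-stimulated genes were lower for 17 of 25 (median -0.05), but without Vill 3 higher for 21 of 25 (median 0.24).

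Genes of the gut wall had lower means in Vill, and their values turned in part on single libraries. All 14 smooth muscle genes had a lower mean in Vill (median -0.49), with Myh11 at -0.50 and Des at -0.51. Myh11, smooth muscle myosin, stood at 1454, 2255, 1108 and 1033 CPM in ff and 1127, 1002, 265 and 1735 CPM in Vill. Vill 3 stood apart and the other 3 Vill libraries lay within or just under the ff range. The summed list stood at 1704 CPM in Vill 3, 5585 to 10143 CPM in the other Vill libraries and 6200 to 12521 CPM in ff. Without Vill 3 all 14 genes kept a lower mean but the median was -0.18, and without Vill 4 it was -0.89. Fibroblast and collagen genes were lower for 19 of 20 (median -0.33; Dcn at -0.37, Col3a1 at -0.23), and without Vill 3 again for 19 of 20 (median -0.24).

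Endothelial genes were lower for 14 of 14 (median -0.18; Vwf at -0.43, Pecam1 at -0.26), with medians of -0.35 without Vill 2 and -0.09 without Vill 1. Glial genes were lower for 8 of 9 (median -0.39; Scn7a at -0.59). Without Vill 3, 6 of 9 were lower with a median of -0.22 and Scn7a at -0.35, and without Vill 4 the median was -0.81. Neuronal genes were lower for 13 of 15 (median -0.20), and Vip at -0.62 was the lowest of the 15. Without Vill 3, 4 of 15 were lower (median 0.06), although Vip stayed at -0.37. Foxf1, Mrc2 and Hspb1 were also at their lowest of the 8 libraries in Vill 3, where smooth muscle, neuron and glia sums were lowest, and the part of those cells in these values was not tested. Members of the remaining lists with groups apart were Egr2, an immediate early gene (0.62 against 1.06 CPM on average), and Krt14, a keratin of squamous epithelium (1.14 against 0.63 CPM).

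**Figure D5:**
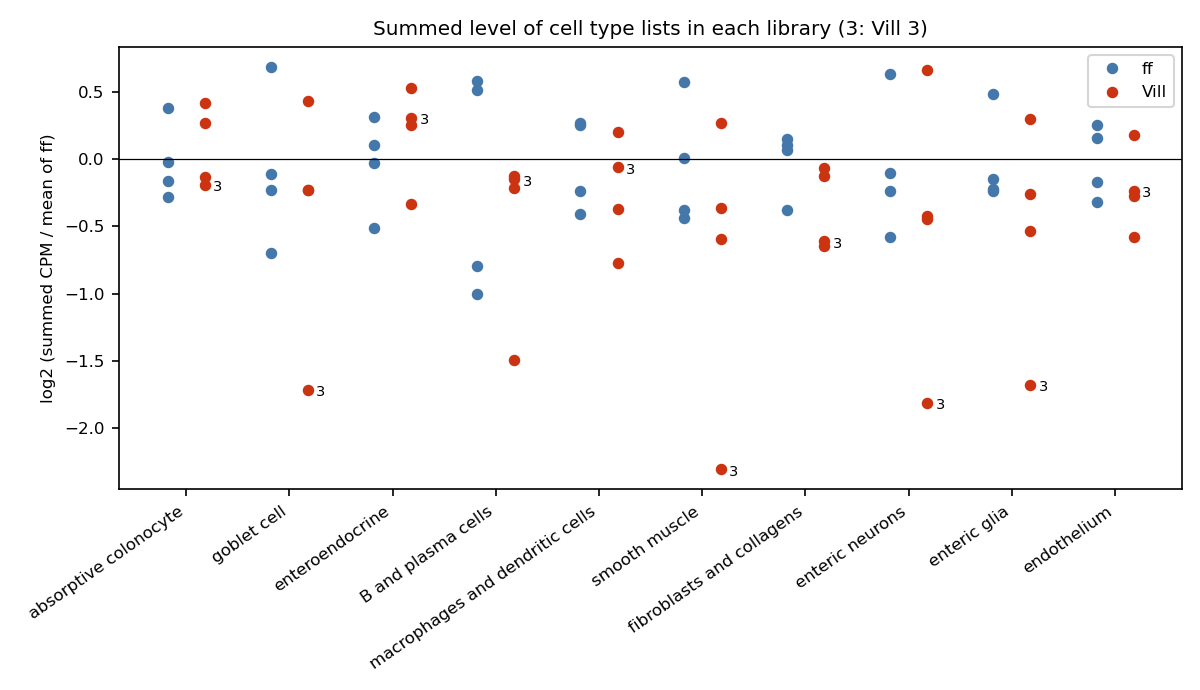
Summed CPM of each cell type list in each ff (blue) and Vill (red) library, as the log2 of its ratio to the ff mean (y), with Vill 3 marked. Vill 3 lies far below the other libraries for smooth muscle, goblet cell, neuron and glia genes. Vill 1 lies below every ff library for B and plasma cell, macrophage and dendritic cell, fibroblast, endothelial and glia genes. Vill 2 and Vill 4 lie mostly within the ff range.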

How the data were processed

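Per the file headers, the authors deposited read counts per gene for 12 chow and 8 HFD libraries, with 28 further per-sample columns that were not used. Neither were their fold change and p columns. Per the submitters' processing notes, tools were DESeq2 1.20.0, featureCounts 1.5.0-p3, edgeR 3.22.5 and HISAT2 2.0.5, with mm39 as genome and no roles stated. The annotation release is not given in the sources used here. The chow table lists 56748 genes, 22157 of them with no read in the 12 chow libraries.

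The main test was the quasi-likelihood F test of edgeR 4.0.16 in R 4.3.3, after TMM scaling and filterByExpr, in 1 fit of the 12 chow libraries with Vill minus ff as the contrast. Benjamini-Hochberg adjustment covered all 19701 genes, with calls under 0.05. CPM use the TMM scale. The HFD table was fitted apart (17715 genes), and list values were read without Vill 3, both chosen after seeing the data. DESeq2 1.42.0, limma-voom (limma 3.58.1) and 1 surrogate variable (sva 3.50.0) were alternatives. The edgeR step was tested on simulated counts.

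Named genes are Pcca, Pccb, Vil1, Alb and the propionyl-CoA list, genes called by any tool, the 15 smallest p-values per direction and the 5 largest fold changes per direction without overlap (both at 2 CPM or more), neighbours within 1 Mb of a called gene without overlap, and per list the members without overlap or otherwise among the 4 most abundant, of which 1 gene is not reported here. The genes leading the principal component and Mt3, Ccl17, Serpina3k, mt-Atp6, Car1, Fabp1, Xist and Ddx3y were named outside this rule, with their values seen. The 49 lists and the comparison were chosen with earlier results of these data known.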

Additional observations from a re-analysis of the deposited data

Results flagged for a closer look

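In 282 groups of 4 values, 13 had 1 library far from the other 3 by Dixon's ratio, or 4.61% of groups, where chance gives about 5%. Many of the genes were named for small p-values or groups apart, and all groups share the same libraries. This share therefore cannot show whether single libraries stand out more often than by chance. Several of the 13 are genes described above. In the ff group, ff 1 was high for Hspb1 (162 CPM), ff 3 was high for Eppk1 (80.4 CPM) and low for Ccl11 (7.87 CPM), and ff 4 was high for Eral1 (19.1 CPM). Library ff 2 was high for Itgam (3.14 CPM), Scn7a (29.4 CPM), the summed enteric glia list (80.7 CPM) and the summed squamous epithelium list (43.2 CPM). In the Vill group, Vill 3 was high for Cyp2w1 (10.7 CPM). Vill 1 was high for Acads (281.9 CPM) and the summed list of conjugation and xenobiotic enzymes (5809 CPM), and low for Jchain (210.5 CPM) and the summed B and plasma cell list (1589 CPM). The cause of these single values was not tested.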

How the results depend on the processing

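DESeq2 size factors, a mean of 1 CPM or more, the 8 libraries alone, the surrogate variable, limma-voom and each left-out library called 1 gene, Gm45774. With no filter 2 genes were called and with DESeq2 3. Replicate numbers did not pair the libraries (correlations of same-numbered libraries -0.43 to 0.31, 1 of 4 over 0.1), and with the replicate block 0 genes were called (265 at an unadjusted p under 0.05), Gm45774 keeping a log2 fold change of 8.86 with an adjusted p of 0.053. Without 1 library Gm45774 ranged over 8.36 to 9.87 (adjusted p 0.00159 to 0.0181), Mt1 over 2.03 to 2.39 and Pcca over -0.76 to -0.60. Of 88 genes named with a fold change, 13 changed sign under some alternative; the cause was not tested. Without 1 library the ranges of the 13 were -0.011 to 0.21 (Pccb), -0.065 to 0.058 (Mcee), -0.039 to 0.080 (Mmut), -0.013 to 0.10 (Mmaa), -0.075 to 0.12 (Mmab), -0.035 to 0.080 (Sucla2), -0.19 to 0.20 (Vil1), -0.53 to 0.73 (Mt3), -0.021 to 0.13 (Slc5a8), -0.052 to 0.38 (Acads), -0.47 to 0.092 (Slc39a4), -0.79 to 0.18 (Clca1) and -0.61 to 0.14 (Muc2). With the surrogate variable Mcee was at -0.00058, Vil1 at 0.014 and Mt3 at -0.033, and with limma-voom Mt3 was at -0.30. The median of 28 of the 49 lists changed sign under some edgeR alternative. At these depths, genes with few reads in a group, such as Mt2 and Mt4 in ff, rest on counting error as well as on spread between samples.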

Other observations

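The gene lists not described above had no called member either. Enzymes of conjugation and xenobiotic metabolism had a higher mean in Vill for 17 of 23 genes, with a median log2 fold change of 0.11, which was -0.31 without Vill 1 and 0.37 without ff 2. Glycolysis genes were higher for 13 of 19 (median 0.06). Circadian clock genes were lower for 13 of 19 and higher for 6 (median -0.21), with medians between -0.31 and -0.08 under every edgeR alternative run. Members ran from -1.09 to 0.43. The sums overlapped, at 878 to 1155 CPM in ff and 793 to 1112 CPM in Vill. Epithelial antimicrobial and inflammatory defence genes, Cx3cl1 among them, were lower for 16 of 21 (median -0.18), and without Vill 3 for 12 of 21 (median -0.02). All 8 genes listed for interstitial cells of Cajal, the pacemaker cells of the gut wall, were lower (median -0.28), and without Vill 3 6 of 8 were.

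Of 5 measured red blood cell genes, 4 had a higher mean (median 0.45), at summed levels of 4.05 to 9.57 CPM in ff and 5.70 to 12.0 CPM in Vill. Adipocyte genes were higher for 6 of 11 (median 0.13), with medians from -0.87 without Vill 1 to 1.29 without ff 2, and their summed level ranged widely in both groups, from 143 to 625 CPM in ff and from 148 to 568 CPM in Vill. Genes that mark position along the colon were higher for 9 of 12 (median 0.17), and without Vill 3 for 5 of 12 (median -0.05). Tuft cell genes split, with 6 of 11 higher (median 0.03), and without Vill 3 8 of 11 were (median 0.26).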
